A study of Mus musculus with 8 samples.

Results

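The zinc finger protein genes described here were the 365 protein-coding genes of the mouse GENCODE M21 annotation whose symbol is Zfp followed by a number, of 21951 protein-coding genes in all. They were chosen by symbol alone, and each gene body was extended by 1 kb on either side. A peak belonged to them when it overlapped such an extended gene by at least 1 bp. The symbol is broader than the protein class. A search of the translated coding sequences by letter pattern found a C2H2 zinc finger in 352 of the genes and none in 13. Such a pattern can miss fingers of unusual spacing. Of the 365 genes, 252 held a peak in at least 1 of the 4 conditions, 108 held a peak in all 4, and 113 held none.

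RNA:DNA hybrids were mapped by DRIP-seq, in which the S9.6 antibody pulls down restriction-digested DNA that carries an RNA:DNA hybrid, in mouse embryonic fibroblasts of 1 line (Rtel1F/F;WT RNH1-GFP MEFs). In every condition the cells carried floxed alleles of Rtel1, a DNA helicase, together with WT RNaseH1-GFP under doxycycline control, an enzyme that degrades the RNA strand of the hybrids. Adenovirus delivered GFP (GFP cells) or Cre-GFP, which deletes Rtel1 (Cre cells), and 48 h later doxycycline at 2 µg/ml was given (DOX) or withheld (mock) for another 48 h. Each of the 4 conditions had 1 DRIP library, pooled from 3 immunoprecipitations, and 1 peak list. No difference between conditions could therefore be tested, and intervals on shares are exact 95% Clopper-Pearson intervals that cover counting error over genes only. Fewer cells with a hybrid and less hybrid per cell cannot be told apart in such libraries. Peak lists hold no expression values, so neither the fibroblast identity nor the loss of Rtel1 was checked here, and the 4 input libraries were not analysed here.

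C2H2 zinc finger proteins are the largest class of transcription factors in mammals, and each finger holds a zinc ion between a cysteine pair and a histidine pair and reads a short stretch of DNA. Many of them carry a Krüppel-associated box (KRAB) near the amino end, which recruits the corepressor TRIM28 and through it the histone methyltransferase SETDB1 to silence retrotransposons and other repeats. KRAB zinc finger genes arose by tandem duplication, lie in clusters, and usually code for the whole array of fingers in a single last exon. RNA:DNA hybrids form behind RNA polymerase and are best known at GC-rich gene starts and near gene ends. The genes thus join a start, a long terminal exon of repeated coding sequence, and neighbours of nearly the same sequence.

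The sequences in the gene models had these properties. The median gene with fingers had 11 of them, and the largest array had 36. Of the 349 genes with fingers and more than 1 exon, 278 (79.7%) had every finger-coding base in the last exon. A pattern of the KRAB box was found in the translated sequence of 218 genes, and 147 had none. This letter pattern was not checked against known KRAB domains and may miss or add genes, so genes without it may still carry a KRAB box. The last exon had a median of 3114 bp, against 1941 bp in other protein-coding genes, while the median gene body was 17.4 kb long in both. There were 89 of the genes on chromosome 7. A run of genes whose bodies lay at most 250 kb apart was called a cluster: 17 clusters of 5 or more held 149 genes, 34 small clusters held 88, and 128 genes were isolated.

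Peak sequences over the finger arrays are shown first because the fingers define this gene class. Sequences are from the GRCm38 (mm10) reference, on the strand of the gene and 5′ to 3′, and capitals mark the bases that code for a C2H2 finger. The first and the second are the stretches of the Zfp628 and Zfp408 last exons that lay inside a peak of every list. The other two are whole peaks of a single list, of Zfp971 in GFP mock and Zfp113 in Cre DOX.
Zfp628, chr7:4919307-4919557, + strand: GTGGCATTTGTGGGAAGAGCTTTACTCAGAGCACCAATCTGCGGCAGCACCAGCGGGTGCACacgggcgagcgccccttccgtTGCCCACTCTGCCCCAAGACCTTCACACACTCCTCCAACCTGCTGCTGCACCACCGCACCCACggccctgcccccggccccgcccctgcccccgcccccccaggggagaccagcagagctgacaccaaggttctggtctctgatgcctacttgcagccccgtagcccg
Zfp408, chr2:91645298-91645421, - strand: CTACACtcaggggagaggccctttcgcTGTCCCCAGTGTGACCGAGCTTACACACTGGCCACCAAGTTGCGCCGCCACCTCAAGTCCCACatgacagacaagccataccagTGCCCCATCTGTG
Zfp971, chr2:178033672-178033933, + strand: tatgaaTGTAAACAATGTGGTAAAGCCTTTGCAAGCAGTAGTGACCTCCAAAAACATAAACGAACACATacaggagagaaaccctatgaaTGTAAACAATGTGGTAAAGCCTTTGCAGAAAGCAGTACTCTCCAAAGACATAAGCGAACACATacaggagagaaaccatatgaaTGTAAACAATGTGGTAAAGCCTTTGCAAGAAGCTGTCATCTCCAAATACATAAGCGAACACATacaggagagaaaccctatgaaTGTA
Zfp113, chr5:138144744-138144956, - strand: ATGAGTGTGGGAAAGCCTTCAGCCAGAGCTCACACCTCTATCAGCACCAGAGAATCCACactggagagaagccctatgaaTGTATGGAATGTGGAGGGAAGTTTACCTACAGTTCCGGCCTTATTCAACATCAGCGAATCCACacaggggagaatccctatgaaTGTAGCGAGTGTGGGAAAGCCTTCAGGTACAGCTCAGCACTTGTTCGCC
The stretch of Zfp628 had 125 finger bases of 251 and a GC content of 67.3%. That of Zfp408 had 82 of 124 and 59.7% GC. In the Zfp971 peak 193 of 262 bases coded for fingers, joined by 3 copies of the 15-base linker between fingers, at a GC content of only 38.5%. In the Zfp113 peak, 171 of 213 bases coded for fingers and the GC content was 50.2%.

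Gene starts are shown as 150 bases before the most upstream RefSeq start of the gene (GRCm38), on the strand of the gene, with each CG dinucleotide in capitals. Zfp513, Zfp827 and Zfp622 have no KRAB pattern and held a start peak in all 4 lists.
Zfp513, chr5:31202304-31202453, - strand: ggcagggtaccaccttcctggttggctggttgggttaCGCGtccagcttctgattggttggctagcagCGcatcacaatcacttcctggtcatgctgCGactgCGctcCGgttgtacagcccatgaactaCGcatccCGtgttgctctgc
Zfp827, chr8:79028287-79028436, + strand: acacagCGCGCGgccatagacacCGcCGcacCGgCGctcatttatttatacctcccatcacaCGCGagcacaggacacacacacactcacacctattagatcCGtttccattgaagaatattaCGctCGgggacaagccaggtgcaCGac
Zfp622, chr15:25984216-25984365, + strand: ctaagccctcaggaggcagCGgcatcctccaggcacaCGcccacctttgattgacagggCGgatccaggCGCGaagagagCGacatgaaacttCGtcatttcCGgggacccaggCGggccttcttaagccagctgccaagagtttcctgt
Zfp455, Zfp677 and Zfp84 have a KRAB pattern and held a start peak in no list. They are the first such genes of the 3 largest clusters with a usable RefSeq start. Usable meant near the annotated gene start, with little annotated exon in the 150 bases.
Zfp455, chr13:67194356-67194505, + strand: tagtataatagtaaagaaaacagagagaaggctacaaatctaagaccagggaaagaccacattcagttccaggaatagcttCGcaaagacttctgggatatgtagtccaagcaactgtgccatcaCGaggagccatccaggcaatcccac
Zfp677, chr17:21383598-21383747, + strand: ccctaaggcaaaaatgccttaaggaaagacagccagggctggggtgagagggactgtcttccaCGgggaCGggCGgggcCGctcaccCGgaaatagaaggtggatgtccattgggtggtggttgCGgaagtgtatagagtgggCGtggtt
Zfp84, chr7:29768402-29768551, + strand: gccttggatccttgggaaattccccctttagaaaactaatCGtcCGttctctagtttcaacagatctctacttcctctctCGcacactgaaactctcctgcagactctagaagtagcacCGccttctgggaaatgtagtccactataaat
The number of CG dinucleotides was 8, 13 and 9 in the first set and 2, 7 and 4 in the second, so the 2 sets did not overlap in these examples. The sets were chosen on the start peak and the KRAB pattern together. Over the 300 of the 365 genes with a RefSeq promoter, 98.0% held a CG in these 150 bases, against 85.3% of all 27025 promoters in the RefSeq set. The median was 7 in zinc finger genes and 4 in all promoters. It was 13 in the 29 genes with a start peak in all 4 lists, 8 in the 97 with one in 1 to 3 lists, and 6 in the 174 with none. Genes with a KRAB pattern had a median of 6 and those without one a median of 10. Within the genes with the pattern, the median was 7 in the 51 with a start peak in some list and 5 in the 138 with none. Within those without it, the median was 11 in 75 genes with a start peak and 9.5 in 36 with none. The steps within each class were thus smaller than those over all the genes. The RefSeq set holds more promoters than there are protein-coding genes, so it was not a set of those genes alone. Over 1 kb to either side of the annotated starts, median GC content was 47.0% in zinc finger genes and 48.9% in other protein-coding genes.

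The lists themselves differed in size and shape. The GFP lists held 87613 (mock) and 60219 (DOX) peaks and the Cre lists 91097 (mock) and 105081 (DOX), of which 471, 342, 565 and 515 lay in the extended zinc finger genes. Median peak width over the whole list was 295 bp, 351 bp, 343 bp and 513 bp, and the peaks covered 36.2, 32.1, 47.6 and 89.0 Mb. The Cre DOX list thus covered more of the genome than any other of the 4, and the number of reads behind each list is unknown. From here on, values are given for the lists in that same order, both GFP lists and then both Cre lists, mock before DOX.

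Genes without a KRAB pattern held a start peak about 3 to 8 times as often as genes with one. The start was the 1 kb to either side of any annotated start site. Of the 218 genes with a KRAB pattern, 28 (12.8%, 8.71 to 18), 12 (5.50%, 2.88 to 9.42), 31 (14.2%, 9.87 to 19.6) and 32 (14.7%, 10.3 to 20.1) held a start peak. Of the 147 genes without one, 70 (47.6%, 39.3 to 56.0), 63 (42.9%, 34.7 to 51.3), 76 (51.7%, 43.3 to 60.0) and 69 (46.9%, 38.7 to 55.3) did. The intervals did not overlap in any list, and the difference was 34.8, 37.4, 37.5 and 32.3 percentage points. Over all protein-coding genes the share with a start peak was 30.8%, 25.8%, 36.7% and 27.6%, so that genes with a KRAB pattern lay below it and genes without one above it in every list. As 1 class, 98 (26.8%, 22.4 to 31.7), 75 (20.5%, 16.5 to 25.1), 107 (29.3%, 24.7 to 34.3) and 101 (27.7%, 23.1 to 32.6) of the 365 genes held a start peak. This pooled share lay below that of all genes in the first 3 lists and beside it in Cre DOX, and its order against all genes turned with the choice of peaks in GFP mock and in Cre DOX. When only the top decile by score of each list was kept, the difference between genes without and with a KRAB pattern shrank to 7.45, 5.89, 3.35 and 6.33 points but kept its direction.

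**Figure D1:**
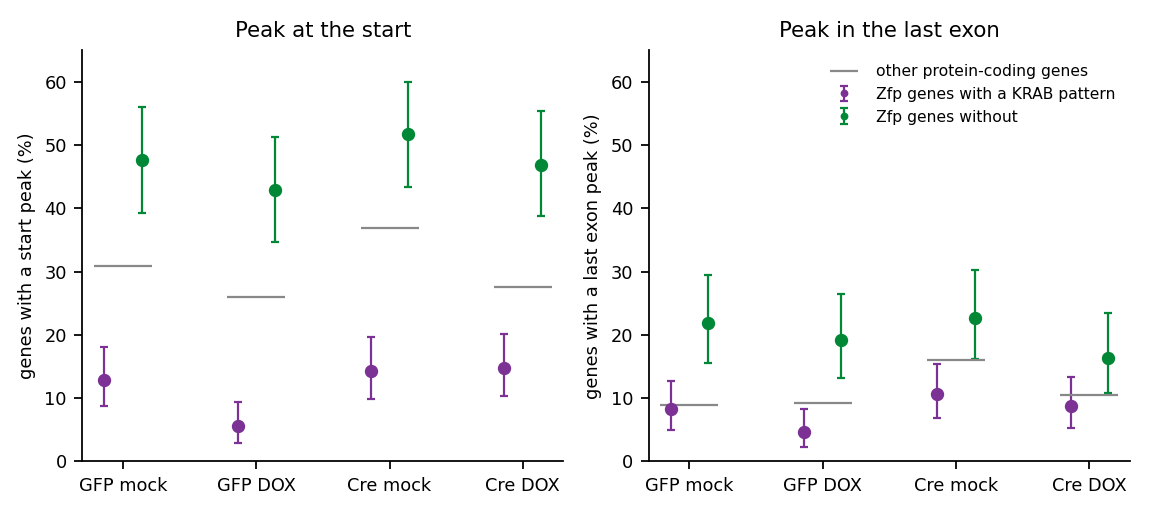
Share of zinc finger genes (Zfp) with a start peak (left) and with a last exon peak (right), in percent, for genes with a KRAB pattern (218) and without (147 at the start, 146 in the last exon) in each of the 4 lists. Points are shares of genes, bars are exact 95% intervals over genes, and grey lines are the share in other protein-coding genes. Start shares were 5.50% to 14.7% with a KRAB pattern and 42.9% to 51.7% without one.

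The genes with a KRAB pattern also differed from the rest in base composition, repeated sequence and position, and each was set beside the split. Their start windows had a median GC content of 45.7%, against 51.0% without the pattern. When genes were placed in low, middle and high GC classes of equal size over all protein-coding genes, 112 of the 218 fell in the low class and only 10 in the high class. Within the low class, start peaks were held by 9.82%, 5.36%, 10.7% and 10.7% of genes with the pattern and by 28.6%, 25%, 32.1% and 35.7% of the 28 genes without it. Within the middle class the shares were 14.6%, 4.17%, 14.6% and 15.6% of 96 genes against 38.0%, 40.0%, 42.0% and 44.0% of 50 genes. The difference thus had the same direction in both classes in all 4 lists, and the intervals were apart in every list in the middle class but only in Cre DOX in the low class. In the high class 3, 2, 5 and 5 of the 10 genes with the pattern held a start peak, and 43, 36, 46 and 37 of the 69 without, and the intervals overlapped in every list. The predicted fraction of read-length windows that occur once in the genome averaged 87.3% over the bodies of genes with the pattern and 98.8% over the rest. After the genes under 90% were left out, 52 of them with the pattern and 4 without, the difference at the start was 35.0, 36.6, 36.1 and 30.1 points.

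**Figure D2:**
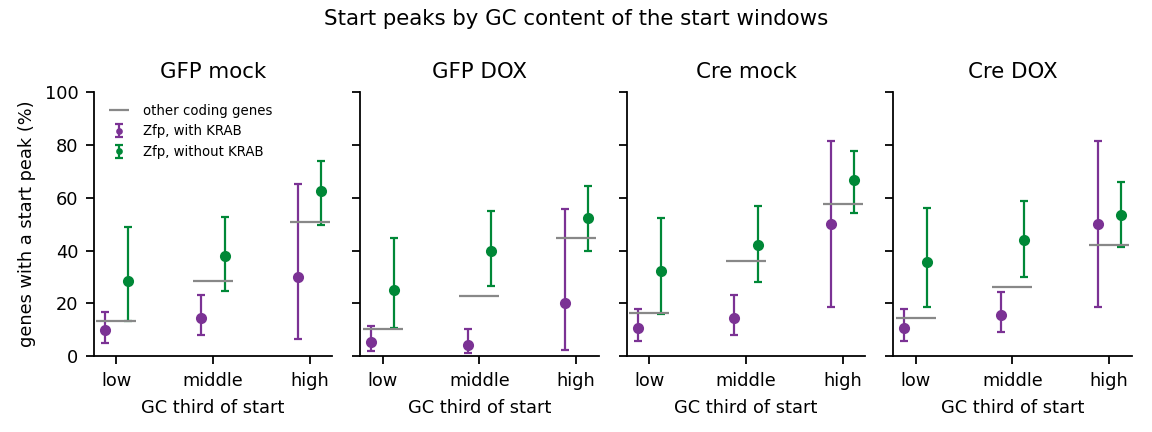
Share of genes with a start peak, in percent, by the GC class of the start windows (low, middle or high, equal classes over all protein-coding genes), 1 panel per list. Points are zinc finger genes (Zfp) with and without a KRAB pattern, bars exact 95% intervals over genes, and grey lines other coding genes. In GFP mock the middle class held 14.6% with the pattern and 38.0% without it.

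Start peaks were also fewer in clusters than in isolated genes. Isolated genes held a start peak in 51, 48, 60 and 56 of 128 cases (39.8%, 37.5%, 46.9% and 43.8%). Genes in clusters of 5 or more held one in 33, 13, 28 and 30 of 149 (22.1%, 8.72%, 18.8% and 20.1%), and genes in small clusters in 14, 14, 19 and 15 of 88. Position and the KRAB pattern went together, since 120 of the 149 clustered genes but 35 of the 128 isolated genes had the pattern. Among the genes with the pattern, 17, 4, 13 and 17 of the 120 in such clusters held a start peak and 11, 8, 18 and 15 of the 98 elsewhere. Among those without it, 16, 9, 15 and 13 of the 29 in such clusters did, and 54, 54, 61 and 56 of the 118 elsewhere. Within each pattern class the 2 positions therefore differed less than the 2 classes did, with the largest gap by position in GFP DOX.

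Genes with few fingers held start peaks more often than genes with many. A start peak was held by 27, 26, 27 and 29 of the 63 genes with 1 to 5 fingers, by 31, 22, 35 and 29 of the 104 with 6 to 10, by 24, 18, 27 and 26 of the 125 with 11 to 15, and by 14, 6, 14 and 14 of the 60 with more than 15. Genes with the KRAB pattern had a median of 12 fingers and the others a median of 7. Whether finger number bears on the peaks apart from the KRAB pattern was not tested.

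The base-by-base coverage along the gene showed where the peaks lay. In the 250 bp just before the gene, a mean of 13.4%, 11.7%, 17.5% and 16.2% of bases lay in a peak in genes without a KRAB pattern. In genes with the pattern the mean was 3.00%, 1.16%, 3.54% and 2.75%, and in other protein-coding genes 7.29%, 7.30%, 10.9% and 8.08%. In the last 5% of the gene body the order was the same between both kinds of zinc finger genes, with 4.44%, 7.71%, 9.77% and 6.60% without the pattern and 1.91%, 1.05%, 2.20% and 2.30% with it. Other protein-coding genes had 1.97%, 3.13%, 5.42% and 3.84% there. At both places the genes with a KRAB pattern lay below other protein-coding genes and those without it above them, in every list. In the last 5% in GFP mock the former were nearly level with other genes (1.91% and 1.97%). Along the rest of the body this order did not hold in every part of every list.

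**Figure D3:**
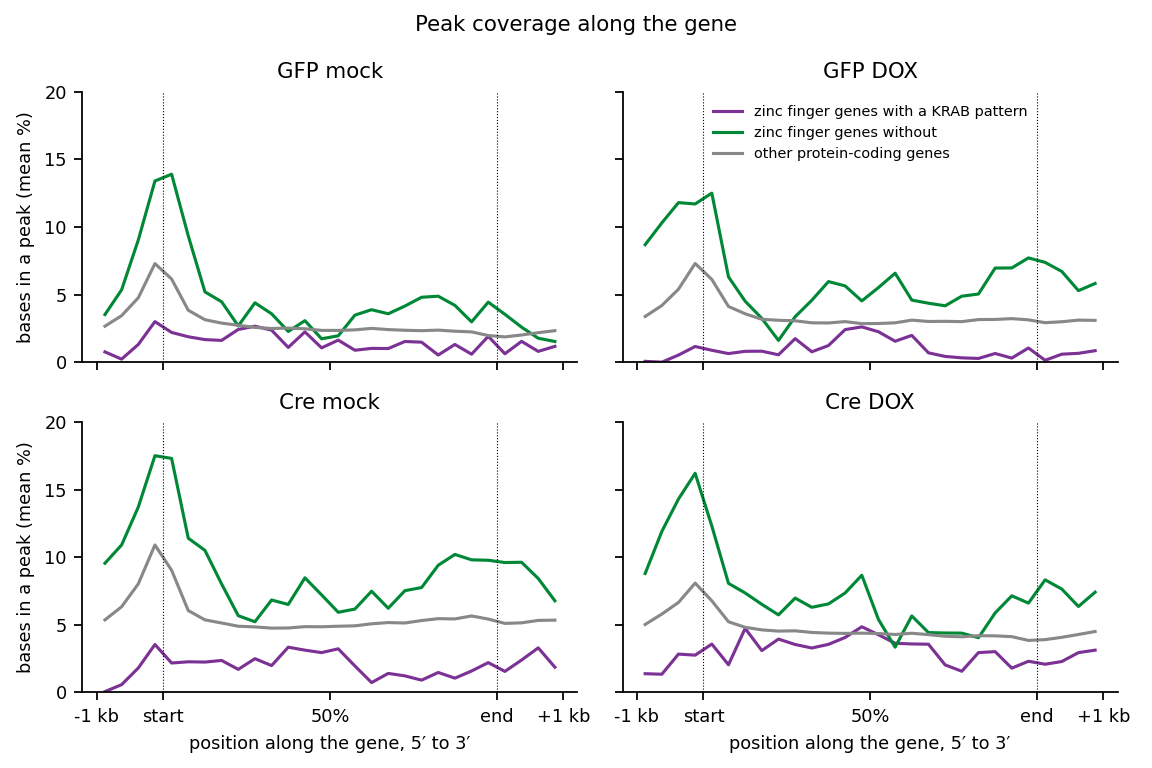
Mean percent of bases inside a peak along the gene, 5′ to 3′, from 1 kb before the gene to 1 kb after it, with the body scaled to 20 bins, 1 panel per list. Lines are zinc finger genes with a KRAB pattern, those without, and other protein-coding genes. In the 250 bp before the gene the GFP mock means were 3.00%, 13.4% and 7.29%.

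The clusters differed widely among themselves, and 2 clusters on chromosome 7 held the most start peaks for their size in both mock lists. On chromosome 7 the cluster from Zfp628 to Zfp580 (4915217 to 5053723) had 6 genes and no KRAB pattern. Of its genes 6, 2, 4 and 2 held a start peak, and its density was 186, 130, 205 and 205 peaks per Mb of extended gene. The cluster from Zfp553 to Zfp646 on the same chromosome (127233061 to 127885996) had 10 genes, 4 of them with the pattern, and 7, 3, 6 and 5 held a start peak, at 153, 153, 247 and 165 peaks per Mb. All extended zinc finger genes together had 40.6, 29.5, 48.7 and 44.4 peaks per Mb, and other protein-coding genes 31.8, 23.9, 40.9 and 33.4.

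The 3 largest clusters, made up wholly or mostly of genes with the pattern, differed in their start peaks. The cluster from Zfp712 to Zfp273 on chromosome 13 (67038596 to 67827002) had 19 genes, all with the pattern, of which 0, 2, 3 and 1 held a start peak and 12 held no peak of any kind in any list. The cluster from Zfp84 to Zfp146 on chromosome 7 (29768552 to 30169750) had 15 genes, 11 with the pattern, and none held a start peak in any list. The cluster from Zfp677 to Zfp946 on chromosome 17 (21383748 to 22456689) had 18 genes with the pattern, of which 4, 0, 4 and 5 held a start peak.

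Other clusters differed between the lists. The cluster from Zfp180 to Zfp575 on chromosome 7 (24081924 to 24587641), of 12 genes, had 3, 1, 1 and 6 with a start peak, the most of them in Cre DOX. The cluster from Zfp560 to Zfp846 on chromosome 9 (20345136 to 20605409), of 5 genes, had 2, 0, 0 and 1, and held no peak of any kind in GFP DOX. The clusters from Zfp990 to Zfp600 (145510759 to 146198755, 5 genes) and from Zfp989 to Zfp933 (146971976 to 147848366, 10 genes) on chromosome 4 had 1, 0, 0, 0 and 1, 0, 1, 0. In these 2 clusters only 45.5% and 48.2% of read-length windows occurred once in the genome, and the part of this in the low counts was not tested.

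The other clusters lay between these. The cluster from Zfp871 to Zfp414 on chromosome 17 (32765496 to 33631779, 11 genes) had 1, 1, 3 and 2 genes with a start peak. That from Zfp786 to Zfp746 on chromosome 6 (47819266 to 48086593, 7 genes) had 2, 2, 3 and 3. On chromosome 7, Zfp787 to Zfp28 (6131491 to 6396915, 6 genes) had 1, 0, 1 and 2, and Zfp329 to Zfp446 (12804977 to 12985714, 5 genes) had 2, 1, 1 and 0. Further along it, Zfp60 to Zfp850 (27731389 to 28014115, 5 genes) and Zfp936 to Zfp819 (43114229 to 43618285, 5 genes) each had 1 gene with a start peak, in Cre DOX. The cluster from Zfp868 to Zfp866 on chromosome 8 (69610857 to 69791178, 5 genes) had 1, 0, 1 and 0, and that from Zfp653 to Zfp810 on chromosome 9 (22055411 to 22307648, 5 genes) had 2, 1, 0 and 1.

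**Figure D4:**
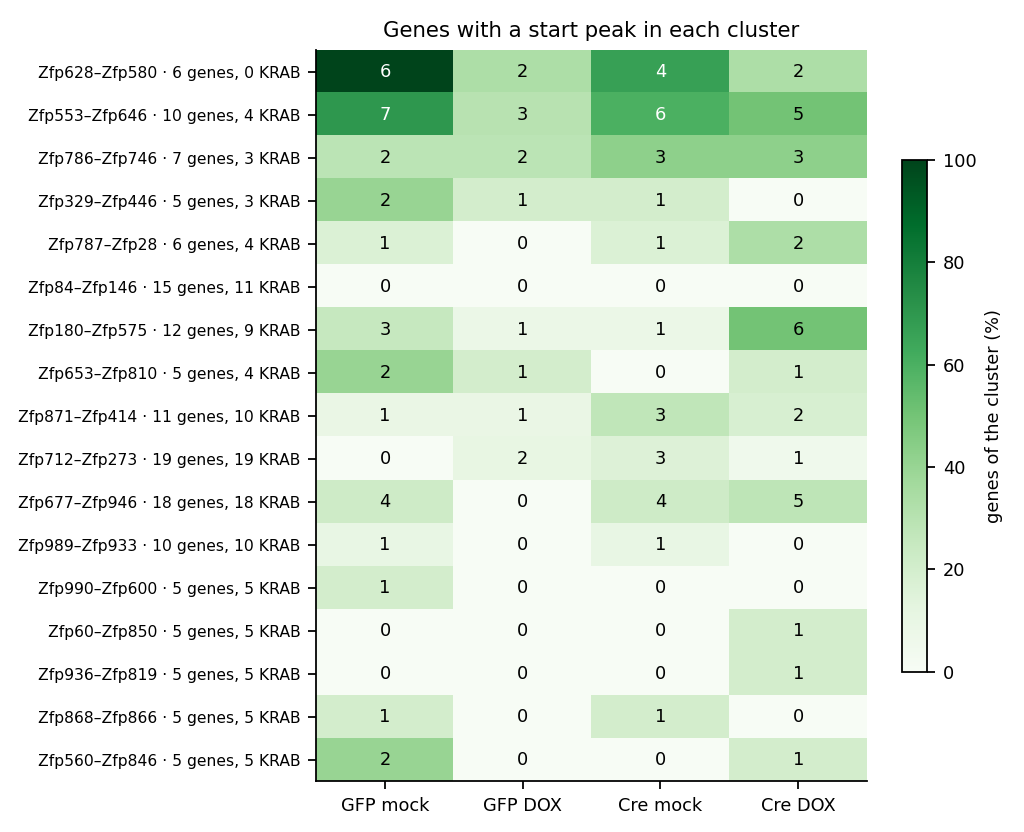
Number of genes with a start peak in each of the 17 clusters of 5 or more zinc finger genes (rows, named by first and last gene with the number of genes and of KRAB patterns) in each list (columns). Colour is the percent of the cluster's genes. The Zfp628 to Zfp580 cluster had 6, 2, 4 and 2 such genes of 6, and the Zfp84 to Zfp146 cluster had none of 15.

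The start peaks were GC-rich and often held a predicted G-quadruplex. A predicted G-quadruplex was a window of 25 bases with an absolute G4Hunter score of at least 1.5. Zinc finger genes had 126, 105, 147 and 136 start peaks, with a median GC content of 64.2%, 57.7%, 59.2% and 54.5%. The start window of a gene outside the class was also overlapped by 37, 38, 43 and 38 of these peaks. For 14, 18, 18 and 15 that gene was protein-coding. The start shares were not recomputed without such peaks. Of all start peaks of zinc finger genes 65.1%, 55.2%, 63.3% and 58.1% held a predicted G-quadruplex, against 24.2%, 20.4%, 24.9% and 23% of all peaks of the list. Their median width was 403.5, 405, 502 and 524 bp, above the list's own, and a wider peak has more places for a match. Their median repeat-masked share was 7.62%, 6.82%, 9.11% and 11.7%, against 86.5%, 93.8%, 64.9% and 95.6% for all peaks of the list. Start peaks of other protein-coding genes were not examined for GC content or a G-quadruplex. Whether either is particular to zinc finger genes was therefore not tested.

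A core of 41 genes (11.2%) held a start peak in all 4 lists, against 13.5% of all protein-coding genes. Only 4 of the 41 had a KRAB pattern, namely Zfp369, Zfp959, Zfp932 and Zfp777. The 206 genes with a start peak in no list included 159 with the pattern. The 41 genes had a median start GC content of 51.4% and a median of 7 fingers.

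The genes with the highest scores among these were led by Zfp513. A peak's score is 10 times its -log10 q-value, and scores are compared within a list by rank, since lists were not normalised to each other. The Zfp513 peaks scored 31, 55, 98 and 88 and spanned the whole gene of 3.3 kb on chromosome 5 in every list, among them in Cre mock from 31197591 to 31202308. They thus covered all 1672 coding bases and 510 bases that code for its 8 fingers, and reached the 3′ end of the promoter printed above. Ranked within its list, the peak stood at the 88.0, 98.5, 99.4 and 99.7 percentile of scores, lowest in GFP mock.

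Zfp91, which encodes a nuclear E3 ubiquitin ligase with C2H2 fingers, had start peaks with scores of 33, 28, 40 and 35 on chromosome 19, and was in the top decile in all 4 lists. The peak from 12794787 to 12796098 in GFP mock had a GC content of 72.1%, and all 4 peaks also overlapped the start window of Lpxn. Zfp827, whose protein has been tied to chromatin at telomeres, scored 34, 23, 30 and 32. These highest start peaks lay downstream of the printed promoter and did not all overlap each other. With lower peaks counted, the bases from 79030051 to 79030959 lay inside a peak of all 4 lists. Within their lists the Zfp91 peaks ranked at the 90.0, 90.1, 94.4 and 93.9 percentile and those of Zfp827 at 90.9, 80.8, 86.1 and 91.0, so that the rank was lowest in GFP DOX for Zfp827 only.

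Zfp703, a corepressor of the NET family in which no C2H2 finger was found here, scored 31, 23, 31 and 32. Zfp651 scored 30, 22, 31 and 37, and Zfp622, a factor of ribosome maturation, scored 21, 24, 37 and 33, and the peaks of GFP DOX, Cre mock and Cre DOX reached its printed promoter. Zfp654 scored 42, 22, 34 and 22, but its 4 peaks also overlapped the start window of Cggbp1. By rank within the list, GFP DOX was the lowest for Zfp703 and Zfp651 (80.8 and 77.7 percentile), GFP mock for Zfp622 (64.1) and Cre DOX for Zfp654 (68.2).

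Zfp369 was the exception of this set, since it has a KRAB pattern and its peaks were nearly all repeat. Its start peaks scored 49, 30, 41 and 32 at a GC content of 36.1% to 37.5%, and 97.9% to 100% of their bases were repeat-masked. The other genes of this set had 2.74% to 56.3% of their peak bases masked.

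**Figure D5:**
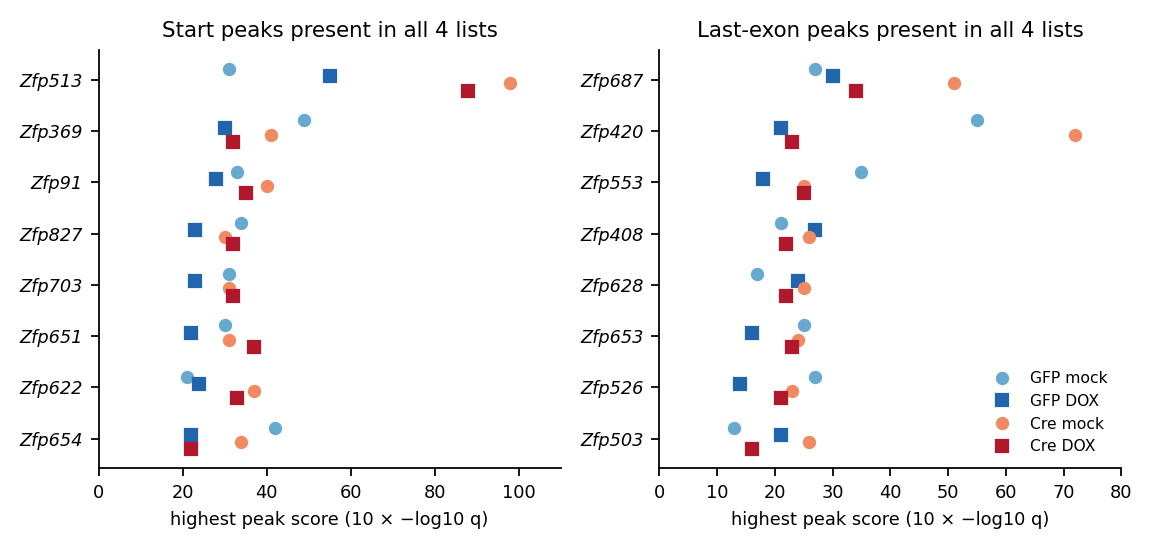
Highest score of a start peak (left) and of a last exon peak (right) in each list, for the 8 genes of each kind with a peak in all 4 lists and the highest mean rank. The horizontal axis is the score, 10 times the -log10 q-value, which was not normalised between lists. Zfp513 reached 98 in Cre mock, and Zfp420 reached 72 in Cre mock and 55 in GFP mock.

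Last exons, where the fingers are coded, held a peak in 50 (13.7%, 10.4 to 17.7), 38 (10.4%, 7.49 to 14), 56 (15.4%, 11.8 to 19.5) and 43 (11.8%, 8.68 to 15.6) of the 364 zinc finger genes with more than 1 exon. A peak that also overlapped a start window was counted at the start. Over all protein-coding genes the share was 9.04%, 9.23%, 15.9% and 10.4%, above which the zinc finger genes lay in 3 lists, though only in GFP mock did the interval exclude it. Their last exons are longer, as given above. Per Mb of last exon they held 47.7, 32.1, 55.2 and 44.8 peaks, against 39.6, 42.1, 76.3 and 47.5 in other protein-coding genes. Per length they were therefore higher in GFP mock and lower in the other 3 lists.

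The KRAB split returned in the last exon at a smaller size. Of 218 genes with the pattern, 18 (8.26%), 10 (4.59%), 23 (10.6%) and 19 (8.72%) held a last exon peak. Of 146 without it, 32 (21.9%), 28 (19.2%), 33 (22.6%) and 24 (16.4%) did. The difference was 13.7, 14.6, 12.1 and 7.72 points, and the intervals of the 2 shares overlapped in Cre DOX but in none of the other 3 lists. With the top decile of scores alone it fell to 0.679, 0.685, 1.14 and 0.452 points.

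Peaks in last exons overlapped coding sequence by at least 1 bp more often than not. The coding share of the exons themselves was not set beside these counts. Of 64, 43, 74 and 60 last exon peaks, 40, 27, 42 and 35 overlapped coding bases, 28, 17, 28 and 26 overlapped bases that code for fingers, and 15, 11, 17 and 16 held a whole 15-base linker between fingers. The Zfp971 and Zfp113 peaks printed above are examples with 3 linkers and 1 linker. The median GC content of last exon peaks was 53.8%, 50.3%, 50.2% and 47.8%, lower than that of start peaks in each list.

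In all 4 lists, 9 genes (2.47%) held a last exon peak, against 2.20% of all protein-coding genes: Zfp503, Zfp408, Zfp971, Zfp687, Zfp628, Zfp526, Zfp420, Zfp553 and Zfp653. Of these only Zfp971 had a KRAB pattern, and only 65.7% of its read-length windows occurred once in the genome. Zfp971 scored 14, 17, 21 and 14.

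Zfp687 had the highest mean rank of the 9, with scores of 27, 30, 51 and 34 on chromosome 3. In GFP mock its highest last exon peak lay wholly inside the untranslated part of that exon (95006866 to 95007029). The peaks of the other 3 lists were over 4 kb wide and also reached the start window of Pi4kb, the neighbouring gene. GFP mock had a separate peak, with a score of 16, over the bases from 95004077 to 95006187 beyond the gene, which the wide peaks also covered. Zfp420 scored 55, 21, 72 and 23 at 1 place on chromosome 7 (29862916 to 29863229 in Cre mock), over untranslated and intron bases and no finger. By rank within the list it was higher in both mock lists (97.8 and 98.8 percentile) than in both DOX lists (74.2 and 71.9).

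Zfp553, Zfp526 and Zfp653 held peaks over their fingers. The highest last exon peak of Zfp553 in each list scored 35, 18, 25 and 25 and covered 126, 441, 734 and 126 finger bases. That of Zfp526 scored 27, 14, 23 and 21 with 219, 321, 828 and 71 finger bases. That of Zfp653 scored 25, 16, 24 and 23 with 62, 282, 333 and 0. By rank within the list GFP DOX was the lowest for each of the 3 genes (59.3, 27.9 and 45.1 percentile). Among these highest peaks, those of Cre mock covered the most finger bases. Lower last exon peaks, which Zfp553 also held, were left out of these counts.

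Zfp628 and Zfp408 shared finger bases across all 4 lists, in the sequences printed above. Peaks over the printed stretches scored 17, 24, 21 and 17 in Zfp628 and 18, 27, 26 and 12 in Zfp408. The highest last exon peaks of Zfp628 scored 17, 24, 25 and 22. Those of Zfp408, a gene linked to disease of the retinal vessels, scored 21, 27, 26 and 22. In some lists this highest peak lay elsewhere in the exon and held no finger base. Ranked within its list, the highest peak was lowest in GFP mock for both genes, at the 42.3 and 64.1 percentile. In Zfp628 the peaks of GFP mock, Cre mock and Cre DOX ran on into the start window of the neighbouring gene Nat14. Zfp503, of the same corepressor family as Zfp703 and likewise with no C2H2 finger found here, scored 13, 21, 26 and 16.

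Most peaks of the genes lay in neither place but in introns. There were 281, 194, 344 and 319 such body peaks, of which 256, 172, 299 and 284 lay wholly in introns. More than 50% of the bases were repeat-masked in 61.9%, 60.8%, 51.5% and 67.4% of body peaks, as in 63.8%, 63.1%, 54.1% and 75.2% of all peaks of the list. Counting any peak of the extended gene, 189 (51.8%), 149 (40.8%), 199 (54.5%) and 192 (52.6%) zinc finger genes held one, and 55.0%, 46.0%, 60.4% and 54.1% of all protein-coding genes.

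A few genes held many of these peaks. Zfp697, whose annotated body spans 371 kb, had 34, 32, 38 and 27 peaks, or 7.22%, 9.36%, 6.73% and 5.24% of the members' peaks, and only 58.2% of its windows occurred once in the genome. Zfp943 followed with 15, 14, 15 and 15 peaks, Zfp942 had 9, 7, 10 and 7, and Zfp936 had 10, 6, 6 and 7. By contrast 82, 70, 67 and 64 genes held a single peak. Zfp943 thus had 14 or 15 peaks in every list, while the members together ranged from 342 to 565.

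The bases common to all 4 lists made up 106 regions in 55 of the genes, 53.1 kb in all. Each region took the class of the GFP mock peak that held it, and may itself lie elsewhere in the gene. By this class 39 were start regions of 31 genes, 14 last exon regions of 9 genes and 53 body regions of 22 genes. Of the 39 start regions 5 belonged to genes with a KRAB pattern, and of the 53 body regions 35 did, beside 218 of the 365 genes. The body regions are not separate cases, since single genes held several of them. Among these were Zfp943 and Zfp942, both of the Zfp677 to Zfp946 cluster on chromosome 17. Of the 53 body regions 48 were wholly intronic and 42 were over 50% repeat-masked. Bases that code for fingers occurred in 4 of the 106 regions, in Zfp513, Zfp622, Zfp408 and Zfp628.

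An intron of Zfp185 held a region with a high score in all 4 lists. It is printed because of this score, from the GRCm38 (mm10) reference and on the strand of the gene, with nothing marked.
Zfp185, chrX:73026529-73026653, + strand: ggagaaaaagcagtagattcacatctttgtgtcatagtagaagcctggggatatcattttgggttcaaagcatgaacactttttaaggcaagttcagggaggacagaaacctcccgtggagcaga
Zfp185, which encodes a LIM domain protein of the actin cytoskeleton and no C2H2 finger, scored 128, 97, 75 and 41 in this region, which had no repeat-masked base and a GC content of 44.0%. The peaks that held it ranked at the 99.6, 99.5, 98.9 and 96.9 percentile of scores in their lists.

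Which genes held a start peak changed from list to list. A start peak in Cre mock alone was held by 16 genes (4.38%), against 6.44% of all protein-coding genes. The same was true of 13 genes (3.56%, against 4.65%) for GFP mock alone, 5 (1.37%, against 1.90%) for GFP DOX alone and 18 (4.93%, against 3.34%) for Cre DOX alone. Zinc finger genes were thus above the share of all genes only in Cre DOX, the list with the widest peaks.

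Of the 107 genes with a start peak in Cre mock, 33 (30.8%, 22.3 to 40.5) had none in GFP mock, where 37.4% of all protein-coding genes with a Cre mock start peak had none. Of the same 107, 38 (35.5%, 26.5 to 45.4) had none in Cre DOX, against 41.2% over all genes. Of the 98 genes with one in GFP mock, 44 (44.9%, 34.8 to 55.3) had none in GFP DOX, against 39.6%. These comparisons share lists, all protein-coding genes include the members, and each interval held the value of all genes. The reverse step differed in Cre cells: of 101 genes with a start peak in Cre DOX, 32 (31.7%, 22.8 to 41.7) had none in Cre mock, against 21.9% over all genes, which lay below the interval.

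In last exons, a peak in Cre mock alone was held by 17 genes (4.67%), against 6.08% of all protein-coding genes. It was held by 11 (3.02%, against 2.35%) in GFP mock alone, by 8 (2.20%, against 1.72%) in GFP DOX alone and by 15 (4.12%, against 2.66%) in Cre DOX alone. Of the 56 genes with a last exon peak in Cre mock, 28 (50.0%, 36.3 to 63.7) had none in GFP mock, where the share over all genes was 67%, above the interval. Of the same 56, 38 (67.9%, 54.0 to 79.7) had none in Cre DOX, against 60.7%. Of the 43 genes with one in Cre DOX, 25 (58.1%, 42.1 to 73.0) had none in Cre mock, against 40.0%, below the interval. Both of these departures from all genes rest on under 60 genes and 1 library per condition.

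Single genes of known function were mostly among those that changed between lists. Zfp57, which keeps DNA methylation at imprinted regions, held a weak peak in each list but at 4 different places, with scores of 18 (start), 19 (last exon), 21 (last exon) and 10 (start). Zfp568, a KRAB repressor of a placental Igf2 transcript, had body peaks of 17, 12, 27 and 16 and a last exon peak of 21 in Cre mock only. Zfp809, which silences murine leukaemia viruses, and Zfp42, the pluripotency factor Rex1, held no peak in any list.

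Zfp148 and Zfp281, transcription factors of GC-rich promoters, were among the genes with start peaks in all 4 lists. Zfp148 scored 34, 20, 20 and 14 and ranked highest in GFP mock (90.9 percentile). Zfp281 scored 24, 18, 34 and 34 and ranked higher in the Cre lists (90.7 and 93.0) than in the GFP lists (74.5 and 59.3). Zfp598, a ubiquitin ligase that senses collided ribosomes, scored 24, 20, 26 and 15 at its start. Its peaks in GFP DOX and Cre mock ran over more than 6 kb and covered the whole gene.

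Zfp143, an activator bound at many promoters, had a start peak only in GFP DOX, with a score of 29. Zfp423, a regulator of preadipocytes, had start peaks of 24, 44 and 26 in the first 3 lists and none in Cre DOX. Zfp521 had start peaks of 36 in GFP mock and 13 in Cre DOX only. Zfp106 had them likewise in these 2 lists only, with scores of 24 and 12.

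Zfp36, which encodes the mRNA decay factor tristetraprolin, had start peaks of 16 in both Cre lists and none in the GFP lists. Zfp207, whose protein works with the spindle checkpoint, likewise had start peaks of 12 and 11 in Cre mock and Cre DOX only. Zfp335, a subunit of histone methyltransferase complexes, had start peaks of 15 and 12 in the GFP lists and of 17 in Cre DOX. All of these scores lay under the top decile of their list.

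Zfp750 and Zfp113 held the strongest start peaks found in Cre mock alone. The Zfp750 peak scored 115 (chromosome 11, 121518188 to 121518371). GFP mock had a peak of 64 from 121518187 to 121518322 at the same place, which missed the start window by its shorter end and so counted as body, and neither DOX list had one. Zfp750 encodes a factor of epidermal differentiation, in which no C2H2 finger was found here. The Zfp113 start peak scored 75 (chromosome 5, 138155541 to 138155677), with no start peak in the other 3 lists, and its finger-coding peak in Cre DOX, printed above, scored 31. By the rule of a top-decile peak at the start or in the last exon of 1 list and no peak anywhere in the gene in the other 3, 1 gene qualified: Zfp26, with a score of 35 in GFP mock over 118 bp that were 99.2% repeat-masked.

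The partners of KRAB zinc finger proteins were read in the same way, from a list of 21 genes, of which 13, 13, 17 and 14 held a start peak, against 30.8%, 25.8%, 36.7% and 27.6% of all protein-coding genes. Trim28, the corepressor itself, had start peaks of 22, 22 and 19 in GFP DOX, Cre mock and Cre DOX and none in GFP mock. Setdb1 had one only in GFP mock (28), and last exon peaks of 31, 56 and 37 in the other 3 lists. Hdac1, a histone deacetylase, had start peaks of 44, 29, 44 and 21. Chd3, a remodeller of the NuRD complex, had 36, 36, 28 and 30, and Cbx3, the heterochromatin protein HP1 gamma, had 15, 21, 30 and 23. Smarcad1, a chromatin remodeller, had no peak at the start or in the last exon in any list.

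Other families, chosen by symbol for their C2H2 members, lay on both sides of the Zfp genes. Members were not checked for fingers, and the Sp genes are all those named Sp followed by a number. Start peaks were held by 18, 17, 20 and 20 of 35 Zbtb genes, by 12, 6, 11 and 10 of 17 Klf genes, by 7, 5, 8 and 6 of 12 Sp genes and by 6, 5, 4 and 4 of 14 Prdm genes. They were held by 3, 1, 2 and 1 of 11 Zkscan genes, a family that joins a SCAN domain to a KRAB box, and by 3, 1, 2 and 2 of 10 Zscan genes. Zbtb genes, with a BTB domain in place of KRAB, had a median start GC content of 53.2% and shares from 48.6% to 57.1%.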

How the data were processed

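DRIP-seq peak lists of 4 libraries were used, 1 for each condition as the labels state. Members and lists were chosen with earlier results of these data known, and the split by a KRAB pattern was made after the data were seen. The authors trimmed and aligned single-end reads to mm10 and called peaks with MACS2 for each library in nf-core/chipseq 1.2.1, per the study's methods and the submitters' processing notes. Reads from 3 pooled immunoprecipitations made 1 library, so the spread between them is lost. The command named in the methods carries the option for narrow peaks, but the deposited lists are in the broad format, which joins nearby stretches and widens overlaps. Whether the inputs served as control for the caller is not given in the sources used here. The deposited score is 10 times the -log10 q-value, rounded down. The deposited fold enrichment, a ratio to local background, the deposited -log10 p-value and the deposited -log10 q-value were not normalised between libraries, so scores rank peaks within a list only. Depth is unknown.

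All rows of each list were used on 22 chromosomes, and the values of 1 region are not reported here. Genes, starts and last exons came from GENCODE M21 on GRCm38, with positions counted from 1. Each peak was classed as start, else last exon, else body. Fingers and the KRAB pattern were found by letter patterns in translated coding sequences. Uniqueness was the share of 100-base windows, every 20 bases, that occur once in the reference, and lower-case bases counted as repeat-masked. Shares have exact intervals at 95% confidence, and with 1 library per condition no test was made. Named genes were up to 8 with a last exon peak and up to 8 with a start peak in all 4 lists, by mean rank of score. Genes with a top-decile peak in 1 list and no peak in the other 3 were also named, as was every cluster of 5 or more. To these came 18 genes and 21 partners of known function, and other families as counts by symbol. The shares were recomputed with 8 other settings of peaks, overlap, windows, class order and transcripts. Scripts were tested on simulated data and used Python 3.11.15, NumPy 2.4.6, SciPy 1.17.1, pandas 2.3.3, Numba 0.67.0 and Matplotlib 3.10.9.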

Additional observations from a re-analysis of the deposited data

How the results depend on the processing

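The difference between genes without and with a KRAB pattern kept its direction in 76 of 76 recomputed values at starts and last exons, and ranged from 3.35 to 39.6 points at starts. Shares and differences moved beyond their counting intervals mainly when fewer peaks were used. With the top decile of scores of each list, the share of zinc finger genes with a start peak was 5.75%, 3.29%, 5.48% and 4.38% (GFP mock and DOX, then Cre mock and DOX), and with a last exon peak 1.65%, 0.275%, 1.37% and 1.10%. The differences by KRAB pattern were then 7.45, 5.89, 3.35 and 6.33 points at starts and 0.679, 0.685, 1.14 and 0.452 points in last exons. Above a -log10 q-value of 2 (2 included), the shares were 16.7%, 11.0%, 18.6% and 10.7% at starts and 6.32%, 3.02%, 8.52% and 6.04% in last exons. The start difference was then 21 (GFP mock), 23.8 (GFP DOX) and 12.9 (Cre DOX), and the last exon difference 6.39 in GFP DOX. When each list was cut to its 60219 best peaks by score, the start share was 22.2% (Cre mock) and 15.1% (Cre DOX), the last exon share 9.62% (GFP mock), 11.8% (Cre mock) and 8.24% (Cre DOX), and the start difference 15.8 in Cre DOX. With start and last exon counted independently, the last exon difference in Cre DOX was 15.5. Masking, midpoint overlap, a 500 bp window and basic transcripts moved no value beyond its interval. Nor did 2 settings chosen after seeing the data, genes at least 90% unique and last exon peaks away from other genes' starts. The start share lay above that of all protein-coding genes in 2, 0, 0 and 6 of 8 settings and the last exon share in 8, 6, 4 and 8, so the order depended on the setting in GFP mock and Cre DOX at starts and in GFP DOX and Cre mock in last exons.

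No paired analysis was possible because each condition had 1 library and all carry the same replicate number. Read depth, the spread between immunoprecipitations and the control used for peak calling are unknown, and they limit every difference between lists. Cre DOX peaks were the widest, and the part of width in its overlaps was not tested.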
